A study of Homo sapiens with 6 samples.

Results

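The genes described here encode the nuclear pore complex and the receptors that carry cargo through it. They were taken as the genes with a symbol made of NUP, XPO, IPO, TNPO, KPNA, NXT or NXF and a digit, plus KPNB1, TPR and XPOT, which gave 56 of the 19775 genes represented on the arrays. Of these, 25 were pore genes, 17 import genes and 10 export genes, and 4 were an IPO5 pseudogene and antisense or divergent transcripts that only share the name of a member. LNCaP is an established, androgen-responsive human prostate cancer cell line. Cells received small interfering RNA (siRNA) against the non-coding RNA PCARNEQ (siPCARNEQ), or siRNA to EGFP, a fluorescent protein absent from human cells (siEGFP), and total RNA of each treatment was measured on 3 arrays. All samples thus came from the same line and carried an siRNA, and neither dose nor time after treatment is given in the sources used here. The annotation used pairs no probe set with PCARNEQ alone, so the level of this target was not checked here. The labels speak of a triplicate without naming separate cultures, so p-values reflect the spread of these arrays alone, and that spread may be technical. Array 1 of each group differed from arrays 2 and 3 more than these did from each other.

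The nuclear pore complex is a ring-shaped channel in the nuclear envelope. Outer (Y complex) and inner rings form its scaffold, proteins with phenylalanine-glycine repeats fill its channel, and filaments and a basket extend to the cytoplasmic and the nuclear side. Importins bind cargo in the cytoplasm and release it in the nucleus on binding RAN in its GTP form, whereas exportins bind cargo together with that form. Most mRNA leaves by a different route, carried by NXF1 paired with NXT1 or its paralog NXT2. Growing and dividing cells make large demands on this traffic, and KPNA2, an importin alpha, is widely studied in tumours including prostate cancer.

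Among these pore and transport genes, falls in siPCARNEQ cells outnumbered rises, and 31 of the 56 did not pass. Of the 56 members, 22 fell and 3 rose in the limma test at a Benjamini-Hochberg adjusted p below 0.05, while 12.3% of all genes fell and 15.2% rose. The falls were spread over pore (10 of 25), import (9 of 17) and export genes (3 of 10). NXT2 fell by 3.29 on the log2 scale, the largest change among them, and the inner ring genes NUP35 and NUP155 fell by 1.84 and 1.05. The central receptors KPNB1 and XPO1 did not pass the test. Of 12 pore proteins with other names, which are not counted among the members, 2 fell and 4 rose. Without siEGFP array 2 or array 3, 5 of 17 import members fell in place of 9, against 8.39% and 8.38% of all genes. Without siEGFP array 2, siEGFP array 3 or siPCARNEQ array 3, 1 member rose in place of 3. The shares of all genes that rose were then 10.3%, 10.4% and 11.8%. A fit that blocked on the replicate number (the replicate block) gave 25 falls and 5 rises among the members, against 15.3% and 19.2% of all genes.

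Stretches of DNA just upstream of 5 members that fell are printed with 2 of the searched promoter motifs marked. Other searched motifs are left unmarked, among them TTTGAA (on either strand) in NUP35 and KPNA2 and GGGCGG in NXT1. The 5 stretches were picked with the motif matches and the changes known. That each holds at least 1 of the 2 marked motifs is a result of that choice. Each is the run of 150 bases before the most upstream start listed for the gene in the table used, from RefSeq on GRCh38.p14, 5' to 3' on the gene's strand. Capitals mark CCGGAAG, a core recognised by ETS transcription factors, and CCAAT, the box bound by NF-Y, on either strand (CTTCCGG and ATTGG on the other). The windows lie at chrX:109535674-109535823 (plus strand) for NXT2, chr20:23350641-23350790 (plus) for NXT1, chr2:183124293-183124442 (plus) for NUP35, chr17:5419663-5419812 (minus) for NUP88 and chr17:68035585-68035734 (plus) for KPNA2.
NXT2: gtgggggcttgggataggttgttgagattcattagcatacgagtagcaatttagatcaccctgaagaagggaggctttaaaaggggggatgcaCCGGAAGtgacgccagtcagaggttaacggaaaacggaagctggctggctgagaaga
NXT1: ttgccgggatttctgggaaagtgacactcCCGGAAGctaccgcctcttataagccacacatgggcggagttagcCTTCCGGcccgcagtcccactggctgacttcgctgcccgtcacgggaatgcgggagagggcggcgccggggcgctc
NUP35: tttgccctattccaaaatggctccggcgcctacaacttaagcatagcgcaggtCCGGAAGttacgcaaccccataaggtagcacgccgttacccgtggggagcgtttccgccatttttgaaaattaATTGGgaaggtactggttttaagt
NUP88: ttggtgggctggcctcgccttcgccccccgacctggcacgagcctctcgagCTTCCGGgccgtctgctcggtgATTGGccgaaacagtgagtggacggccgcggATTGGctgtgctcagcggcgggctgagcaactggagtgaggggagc
KPNA2: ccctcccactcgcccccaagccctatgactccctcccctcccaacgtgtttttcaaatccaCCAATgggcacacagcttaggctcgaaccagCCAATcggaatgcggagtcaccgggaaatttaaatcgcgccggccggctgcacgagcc
CCGGAAG occurred once in each of the NXT2, NUP35 and NUP88 stretches and in 2 copies in that of NXT1. CCAAT occurred once in that of NUP35 and in 2 copies in those of NUP88 and KPNA2. The full promoter windows, described next, reach beyond these stretches and cover every listed start. In them, CCGGAAG was found for 8 and CCAAT for 9 of the 20 genes that fell and had a promoter in the table. The 9 include NXT1 and NXT2, whose printed stretches hold no CCAAT.

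Across full promoter windows of 300 bases (250 before and 50 after a start), 45 of the 52 pore, import and export members matched, with 59 windows. CCGGAAG was present in 9 of the 24 windows of members that fell (37.5%) and in 7 of the 35 windows of other members (20.0%), against 12.8% of the 22199 windows of protein-coding genes and 10.3% of all 35116 windows. The 8 genes behind the 9 windows were IPO4, NUP160, NUP35, NUP58, NUP88, NXT1, NXT2 and TNPO3. CCAAT was in 10 of 24 windows (41.7%) and in 19 of 35 (54.3%), against 34.7% of protein-coding windows and 34.6% of all windows. A match describes the letters and is not evidence of a bound site, and no test was made of these shares.

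Other motifs, searched on both strands in the same windows, are given with the same denominators. The YY1-type motif AAGATGGCG was in 3 of the 24 windows (NUP160, NUP188 and NUP88) and in 1 of 35, against 2.41% of protein-coding and 1.75% of all windows. The E-box CACGTG was in 5 of 24 and 3 of 35 (8.34% and 7.26%), and TTTGAA, the core of the cell cycle element CHR, in 3 of 24 and 9 of 35 (12.4% and 15.2%). The E2F forms TTTCGCGC, TTTGGCGC and TTCCCGCC were in 1, 1 and 3 of 24 windows and in 1, 0 and 3 of 35, against 0.712%, 0.815% and 3.98% of protein-coding and 0.515%, 0.652% and 3.16% of all windows. GCGCATGCG, for NRF1, was in 0 of 24 and 4 of 35 (2.36% and 1.92%). A longer YY1 form was in 3 of 24 and 0 of 35 (1.18% and 0.849%) and a spaced NRF1 form in 1 of 24 and 9 of 35 (10.6% and 8.32%), so these counts depend on the letters chosen. GGGCGG was in 14 of 24 and 15 of 35 (56.3% and 45.0%), and TGACGTCA, for ATF and CREB factors, in 2 of 24 and 3 of 35 (2.26% and 1.85%). GGGCGG and CCAAT, both common in promoters, were in more windows of members that fell than CCGGAAG. Some motifs can overlap, as CCGGAAG and the YY1 forms can, sharing the letters AAG.

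Values below are log2 probe-set intensity, and a change is siPCARNEQ minus siEGFP with its standard error (SE). The number of arrays limits the precision, and levels of different probe sets are not compared. Array 1 of each group stood apart from arrays 2 and 3: the log2 difference between 2 arrays had an SD over probe sets of 0.37 and 0.37 for siPCARNEQ array 1 against the others and 0.23 and 0.24 for siEGFP array 1, but 0.14 and 0.13 between arrays 2 and 3. For ACTB, the signal of its 3' control probe set exceeded that of its 5' one by 1.84 (log2) in siPCARNEQ array 1 but by 0.63 to 0.78 elsewhere, a sign of RNA quality, and its part in the results was not tested. Of 9 measured luminal prostate markers, 0 lay below the array median of 7.03 in both groups, 6 rose, and their summed intensity was 79440 to 84371 in siPCARNEQ and 54086 to 55669 in siEGFP. Of all genes, 15.2% rose and 12.3% fell. Of 8 fibroblast and smooth muscle markers, 2 rose (COL1A1 and LUM) and 1 fell (ACTA2). Their sums were 3394 to 3670 in siPCARNEQ and 2363 to 2524 in siEGFP. Of these 8, 2 lay below the array median in both groups, and LUM lay below it in siEGFP (5.78). Of 4 basal markers, 1 rose (KRT14), with sums of 414 to 459 and 391 to 415. Of these 4, 2 lay below the array median in both groups, among them KRT14 (6.3 in siPCARNEQ and 5.28 in siEGFP). Background and signal cannot be separated at such levels here. Of 6 immune and endothelial markers, 0 changed (with limma, 0 also at an unadjusted p below 0.05). Their sums were 593 to 630 and 589 to 680, and 3 of them lay below the array median in both groups. The part of these markers in the results was not tested.

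**Figure D1:**
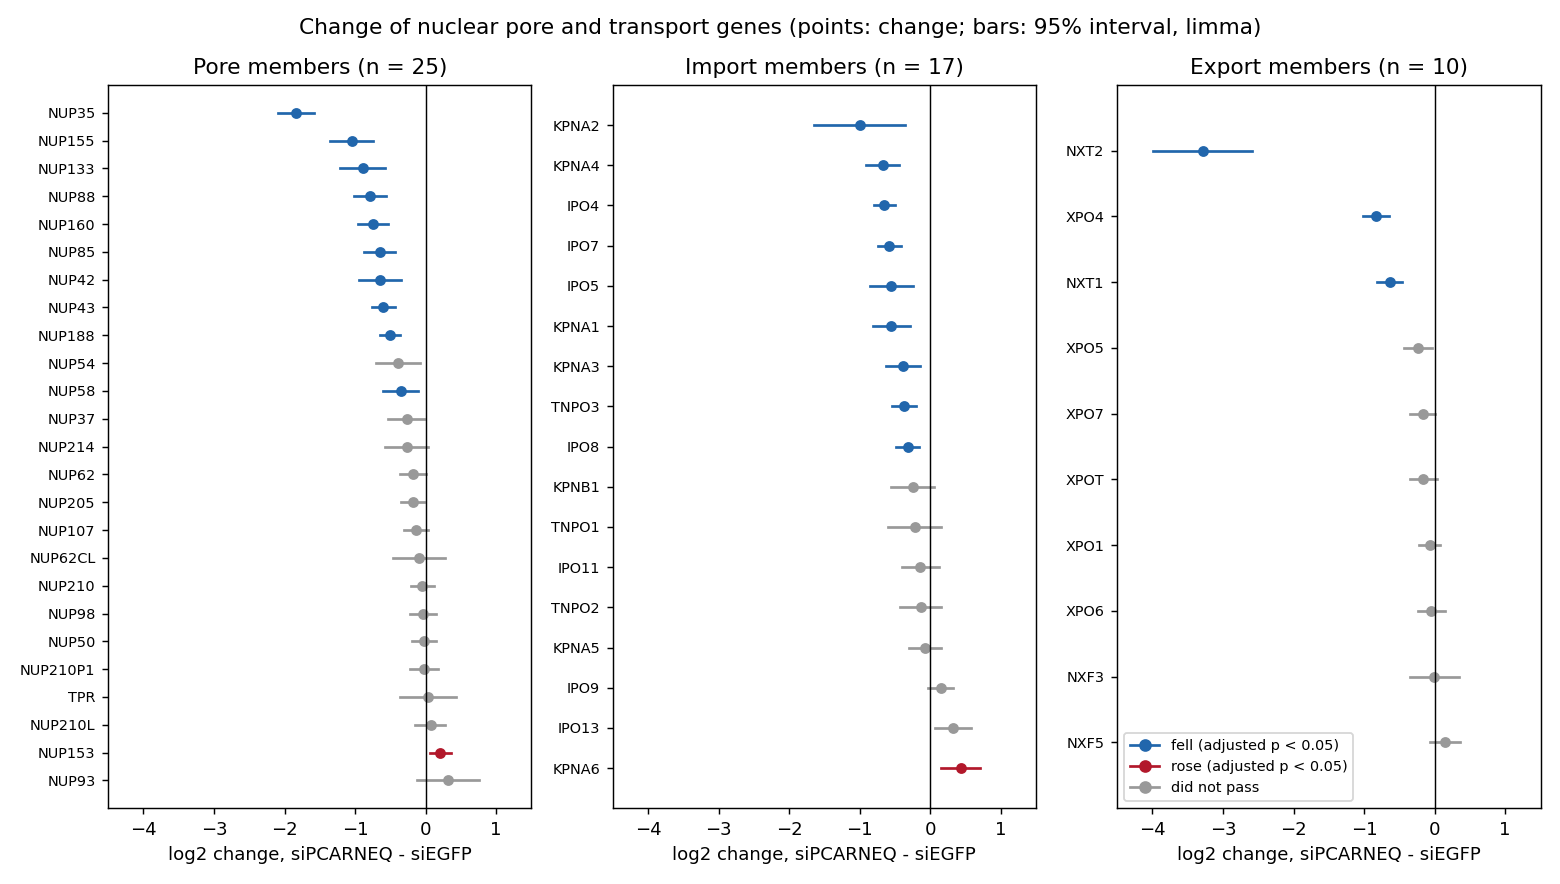
Log2 change (siPCARNEQ minus siEGFP, horizontal axis) of each pore, import and export member with its 95% interval from limma, blue for genes that fell, red for genes that rose and grey for genes that did not pass at an adjusted p of 0.05. In each class most points lie left of 0, with 10 of 25 pore, 9 of 17 import and 3 of 10 export members in blue.

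By class, the median change was -0.27 for pore, -0.32 for import and -0.17 for export members, against -0.01 for all genes. The change was below 0 in 21 of 25 pore, 14 of 17 import and 9 of 10 export members, against 10421 of all 19775 genes. All 3 siPCARNEQ arrays lay below all 3 siEGFP arrays in 14 pore, 9 import and 5 export members, 28 of 52, where 21.7% of all genes showed this. The reverse held for 4 of the 52, against 22.3% of all genes. Falls of at least 1.5-fold were found in 14 members, 8 of them pore, 3 import and 3 export genes, against 5.75% of all genes, and a rise of that size in 1 of the 56, IPO5P1, against 6.94%. The classes were compared by these counts and medians without a test between them.

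NUP210L, NUP210P1, IPO11, NXF3 and NXF5 lay below the array median in both groups, where background and signal cannot be separated here, and none of these 5 passed. Among the other 47 members, 22 fell and 2 rose, while 17.8% of all genes above the array median in at least 1 group fell and 21.8% rose. Falls outnumbered rises among the members with either denominator, unlike among all genes.

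**Figure D2:**
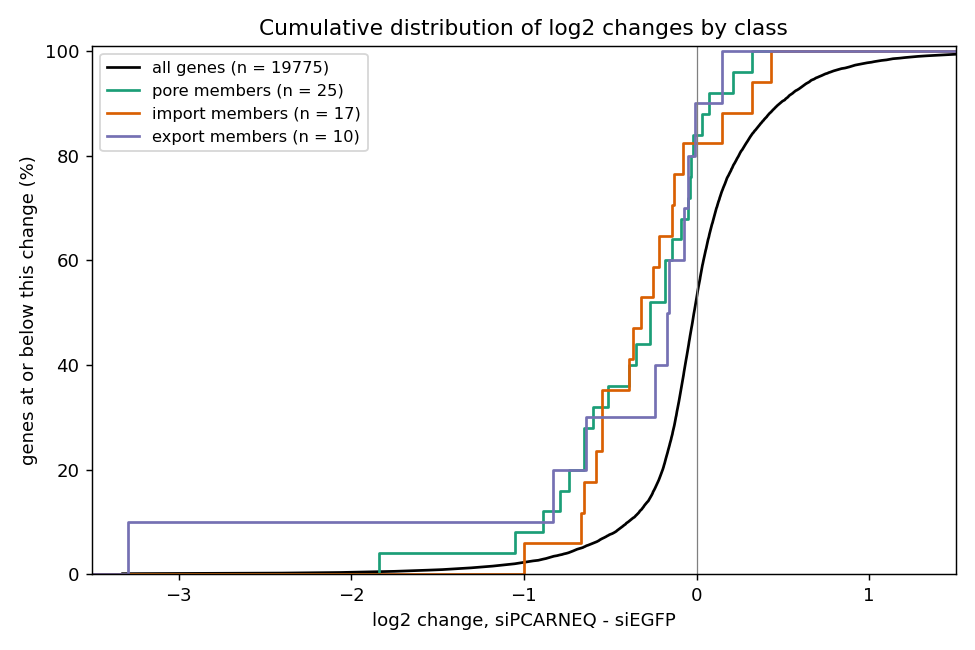
Cumulative share of genes (vertical axis, percent) at or below each log2 change (horizontal axis) for all genes and for the pore, import and export members. The member curves lie left of the curve of all genes over most of its range, with medians of -0.27, -0.32 and -0.17 against -0.01.

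Of the 6 NUP genes of the Y complex, the outer scaffold ring, 4 fell and 2 did not pass, where 12.3% of all genes fell. All 6 had every siPCARNEQ array below every siEGFP array, as 21.7% of all genes did, whereas SEC13 and SEH1L, Y complex genes with other names (SEH1L named with its value known), had changes of 0.44 (rose, adjusted p = 0.00999) and 0.22 (adjusted p = 0.101), each with every siPCARNEQ array higher. The median change of the 6 NUP genes was -0.63, both for array 1 and for arrays 2 and 3. NUP133, which joins neighbouring Y complexes, was at 10.32, 10.80 and 10.80 in siPCARNEQ arrays 1 to 3 and at 11.50, 11.56 and 11.54 in siEGFP. The siPCARNEQ arrays were all lower and array 1 was the lowest of them, and NUP133 fell by 0.89 (SE 0.13, adjusted p = 0.00261). NUP43 was at 10.91, 10.92 and 10.92 against 11.43, 11.55 and 11.57, a fall of 0.60 (SE 0.07, adjusted p = 0.00079) with almost no spread in the siPCARNEQ group. The scaffold subunits NUP160 and NUP85 fell by 0.74 and 0.65. NUP107 and NUP37 had changes of -0.14 (adjusted p = 0.207) and -0.27 (adjusted p = 0.108), and NUP37 passed with the replicate block (adjusted p = 0.0249).

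The inner ring, which holds the scaffold to the membrane, contained the 2 largest falls among the NUP genes. Of its 5 members, 3 fell, where 12.3% of all genes fell. NUP35, an inner ring protein that binds membranes, was at 9.29, 9.63 and 9.54 in siPCARNEQ and at 11.21, 11.32 and 11.46 in siEGFP. The groups were far apart relative to the spread within each, and the fall of 1.84 (SE 0.11, adjusted p = 7.62e-05), a 3.59-fold difference, was the 74th lowest change of all genes. NUP155, a large scaffold protein, was at 9.12, 9.52 and 9.63 against 10.38, 10.53 and 10.51, and fell by 1.05 (SE 0.13, adjusted p = 0.00126). NUP188, another large scaffold protein, fell by 0.51, but its paralog NUP205 had a change of -0.18 (adjusted p = 0.101). NUP93, which links the inner ring to the channel proteins, had a positive change of 0.32 with overlapping groups (SE 0.19, adjusted p = 0.269, and 0.0107 with the replicate block).

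On the cytoplasmic face, 2 of 3 filament members fell, against 12.3% of all genes. NUP88 was at 11.18, 11.40 and 11.43 in siPCARNEQ and at 11.99, 12.19 and 12.20 in siEGFP, a fall of 0.79 (SE 0.10, adjusted p = 0.00111) with no overlap. Its other probe set, which was below the array median, had a change of -0.09 (SE 0.07). NUP42, which works with GLE1 in mRNA export, fell by 0.65, while NUP214, the partner of NUP88, had a change of -0.27 (adjusted p = 0.191) by its brightest probe set but fell by 0.59 (SE 0.07, adjusted p = 0.00185 over probe sets) in the next one.

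Of the channel proteins 1 of 4 fell, and of the basket proteins 0 of 3 (with limma, 0 also at an unadjusted p below 0.05). The share of all genes that fell was 12.3%. Of NUP62, NUP54, NUP58 and NUP98, whose repeats form the permeability barrier, only NUP58 passed, at 10.69, 10.68 and 10.66 in siPCARNEQ against 10.80, 11.13 and 11.15. NUP54 had a change of -0.39 (adjusted p = 0.0684, and 0.00808 with the replicate block), which was 0.38 (adjusted p = 0.297) without probe sets ending in _s_at or _x_at, NUP62 of -0.18 and NUP98 of -0.04. The change of NUP58, -0.35 (SE 0.10, adjusted p = 0.0426), was -0.11 in array 1 and -0.48 in arrays 2 and 3, and the mean change over its 4 probe sets was 0.04 (adjusted p = 0.887). In the basket, NUP153 was at 11.47, 11.49 and 11.48 against 11.22, 11.29 and 11.30, a rise of 0.21 (SE 0.06, adjusted p = 0.0427) without overlap. Adjusted over all probe sets it did not pass (adjusted p = 0.072), and it did not pass without siPCARNEQ array 2 or 3 or any 1 siEGFP array (0.0933 to 0.123). A dimmer probe set of NUP153 fell by 0.66 (SE 0.11, adjusted p = 0.0076 over probe sets), so the direction for this gene depends on the probe set. The basket proteins NUP50 and TPR had changes of -0.03 (95% interval -0.20 to 0.14) and 0.03 (-0.37 to 0.43).

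The membrane protein NUP210 was at 10.22, 10.15 and 10.11 in siPCARNEQ and 10.13, 10.25 and 10.24 in siEGFP, so the groups overlapped (change -0.05, 95% interval -0.21 to 0.12). NUP210L, a paralog of NUP210, was at 5.20, 5.11 and 5.15 against 5.21, 4.91 and 5.14, all below the array median. NUP62CL and the pseudogene NUP210P1 had changes of -0.09 and -0.02 and did not pass.

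**Figure D3:**
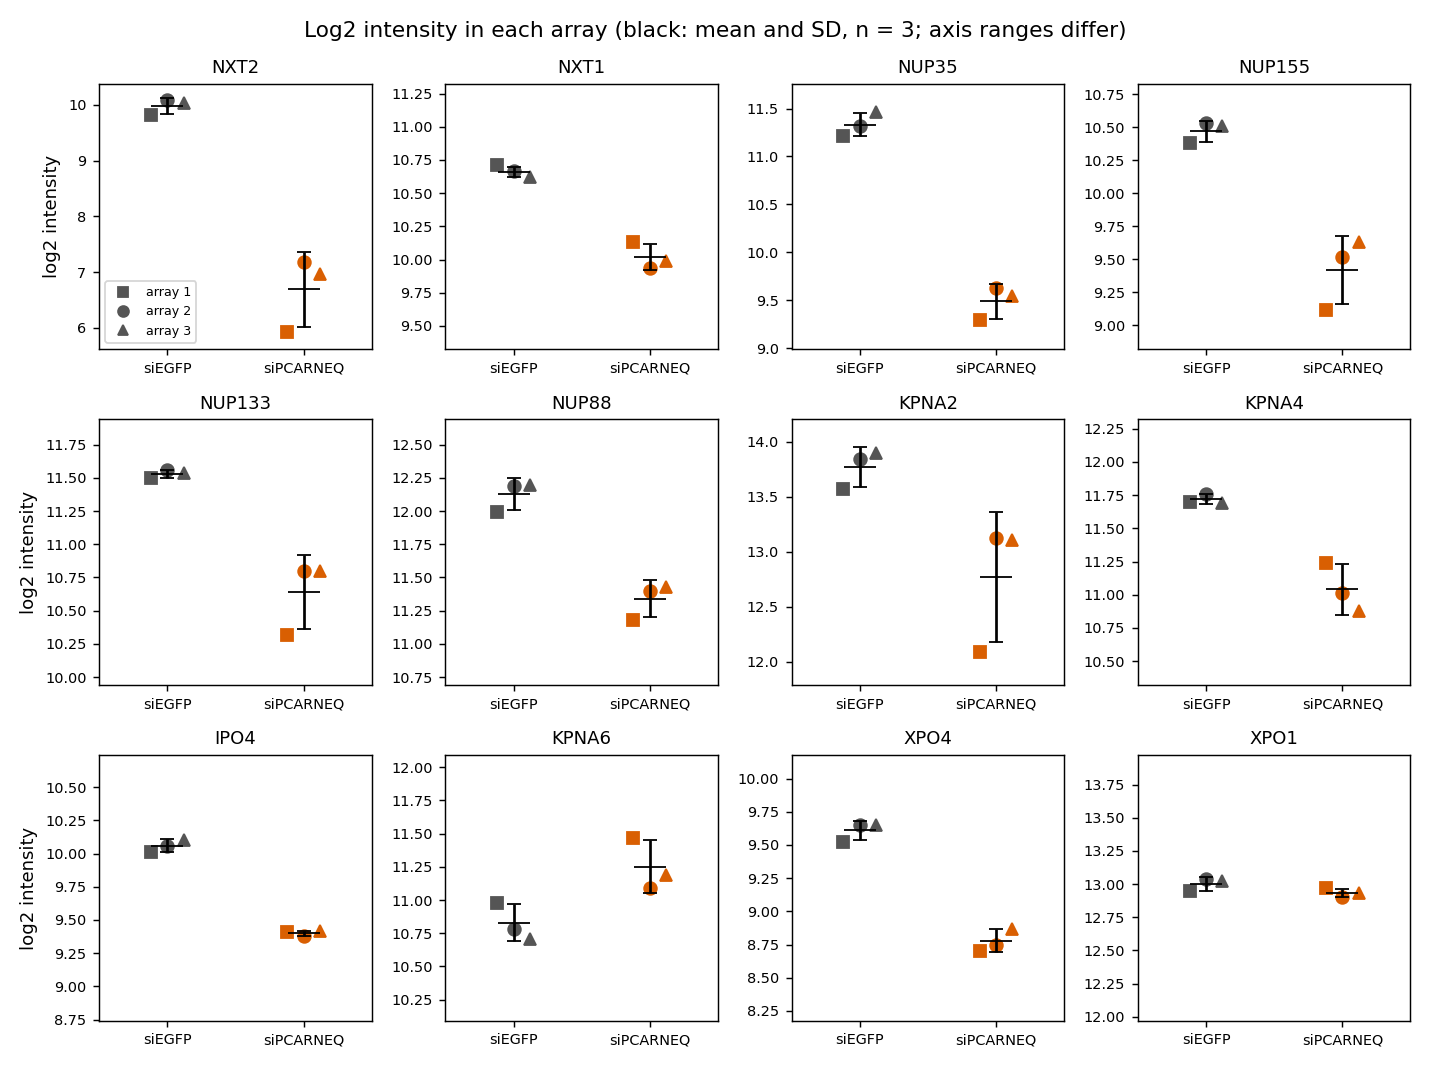
Log2 intensity (vertical axis, range differs between panels) in each siEGFP and siPCARNEQ array for 12 members, with the mean and SD (n = 3) in black and symbols for arrays 1 to 3. In NXT2, NXT1, NUP35, NUP155, NUP133, NUP88, KPNA2, KPNA4, IPO4 and XPO4 every siPCARNEQ array lies below every siEGFP array, in KPNA6 above, and in XPO1 the groups overlap.

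Among the importin alpha genes, whose products read the classical nuclear localisation signal, falls outnumbered rises. The only rise, of KPNA6, depended on the probe sets and arrays used. Of 6 members, 4 fell, 1 rose and 1 did not pass, where 12.3% of all genes fell and 15.2% rose. KPNA2 was at 12.09, 13.12 and 13.11 in siPCARNEQ and at 13.57, 13.84 and 13.90 in siEGFP, and fell by 1.0 (SE 0.27, adjusted p = 0.0313). Array 1 was far below the other siPCARNEQ arrays, and KPNA2 did not pass without siEGFP array 1, 2 or 3 (adjusted p = 0.059, 0.0999 and 0.104), although its other probe set fell by 0.61 (SE 0.13, adjusted p = 0.0158 over probe sets). KPNA4 was at 11.24, 11.01 and 10.88 against 11.70, 11.76 and 11.69, a fall of 0.67 (SE 0.10, adjusted p = 0.00264), and 4 of its 5 probe sets fell.

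KPNA1 and KPNA3 fell by 0.55 and 0.39. Of the 6 probe sets of KPNA1, 3 fell, and the others had changes of -0.08, -0.04 and -0.05. KPNA6 was at 11.47, 11.09 and 11.19 in siPCARNEQ and 10.98, 10.78 and 10.71 in siEGFP, a rise of 0.43 (SE 0.12, adjusted p = 0.0347). Its groups did not overlap, but the test was not passed when siPCARNEQ array 3 or siEGFP array 2 or 3 was left out (adjusted p = 0.0679, 0.115 and 0.124). Adjusted over all probe sets, 0 of its 4 probe sets passed with limma, and 2 had an unadjusted p below 0.05 (0.0103 and 0.0432), both higher. The others had changes of 0.40 (SE 0.23) and -0.40 (SE 0.28). The mean change over its 4 probe sets was 0.17 and did not pass in limma (adjusted p = 0.119). KPNA5 had a change of -0.08.

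KPNB1, importin beta, the carrier that takes importin alpha and its cargo through the pore, did not pass. It was at 13.34, 12.92 and 12.84 in siPCARNEQ and 13.29, 13.31 and 13.27 in siEGFP. Array 1 of siPCARNEQ was the highest of all 6 while arrays 2 and 3 were the lowest, giving a change of -0.25 (SE 0.13, 95% interval -0.56 to 0.05, adjusted p = 0.208). Without siPCARNEQ array 1 it fell by 0.41 (adjusted p = 0.0032). Of its 6 probe sets, the 3 brightest had changes of -0.25, -0.22 and -0.42 and the others 0.29, 0.31 and 0.24.

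Among the importins that bind cargo without importin alpha, 4 of 7 fell, against 12.3% of all genes. IPO4, a carrier of histones and ribosomal proteins, was at 9.41, 9.38 and 9.42 in siPCARNEQ and at 10.01, 10.06 and 10.10 in siEGFP. The spread within each group was small against the fall of 0.65 (SE 0.06, adjusted p = 0.000451). IPO7 and IPO5, which carry ribosomal proteins among other cargoes, fell by 0.58 and 0.55, and all 4 probe sets of IPO7 fell. IPO8 fell by 0.32. IPO13, which works in import and export, and IPO9 had changes of 0.32 (adjusted p = 0.0661, and 0.0456 with the replicate block) and 0.15 (adjusted p = 0.197), with the siPCARNEQ arrays above the siEGFP arrays in both. A dimmer probe set of IPO9 rose by 0.72 (SE 0.15, adjusted p = 0.0153 over probe sets), and the others had changes of 0.19 and 0.06 and did not pass.

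IPO11 was represented by a dim probe set with a change of -0.14. The brighter probe sets shared by IPO11 and the readthrough locus IPO11-LRRC70 had changes of -0.88 (SE 0.32) and -0.98 (SE 0.40) and did not pass (adjusted p = 0.112 and 0.152 over probe sets). Of the transportins, TNPO3, the carrier of SR splicing factors, was at 10.56, 10.57 and 10.65 against 10.88, 11.05 and 10.96, a fall of 0.37 (SE 0.07, adjusted p = 0.00827). Its other probe sets had changes of -0.18 and -0.21 and did not pass. TNPO1 and TNPO2 had changes of -0.22 and -0.13, with 2 of the 10 probe sets of TNPO1 lower.

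Of the exportins, 1 of 6 fell (16.7%, near the 12.3% of all genes). XPO4, which carries eIF5A and SMAD3 out of the nucleus, was at 8.70, 8.75 and 8.87 in siPCARNEQ and at 9.52, 9.65 and 9.65 in siEGFP. It fell by 0.83 (SE 0.08, adjusted p = 0.000374) with no overlap, and by 0.79 (SE 0.17) in its other probe set. XPO1, the main exporter of proteins with leucine-rich export signals, was at 12.97, 12.90 and 12.93 against 12.95, 13.04 and 13.02. The groups overlapped, and the interval of the difference was narrow for this probe set (change -0.07, 95% interval -0.22 to 0.08, adjusted p = 0.497). Its dimmer probe sets had changes of 0.50 (SE 0.19) and -0.33 (SE 0.15) and did not pass. XPO5, the exporter of microRNA precursors, had a change of -0.24 (adjusted p = 0.0769, and 0.0325 with the replicate block) and XPO7 one of -0.17, each with no overlap between groups. XPOT, the tRNA exporter, and XPO6, which exports actin, had changes of -0.16 and -0.05.

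In the mRNA export group, both NXT genes fell and by very different amounts. NXT2 was at 5.92, 7.18 and 6.96 in siPCARNEQ and at 9.82, 10.08 and 10.03 in siEGFP. The siPCARNEQ mean of 6.69 was below the array median, so the size of the change is uncertain. NXT2 fell by 3.29 (SE 0.30, adjusted p = 0.000342), a 9.79-fold difference. Only 1 of all 19775 genes had a lower change, and the other probe set of NXT2 fell by 2.52 (SE 0.28, adjusted p = 0.0014 over probe sets). NXT1, the paralog that forms the standard heterodimer with NXF1, was at 10.13, 9.94 and 9.99 against 10.71, 10.67 and 10.62, and fell by 0.64 (SE 0.08, adjusted p = 0.000988). NXF1 was not analysed here, since the annotation used pairs no probe set with it alone. NXF3, and NXF5, which RefSeq lists as a pseudogene, were below the array median with changes of -0.01 and 0.15. The probe sets shared by the near-identical NXF2 and NXF2B had changes of 0.39 to 0.43 and did not pass.

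Of the 4 loci that only share a name with a member, the IPO5 pseudogene IPO5P1 rose, at 9.57, 9.50 and 9.41 in siPCARNEQ against 8.47, 8.54 and 8.46 in siEGFP. The rise of 1.0 (SE 0.07, adjusted p = 0.000146) was opposite in direction to the fall of IPO5. It was seen in 1 of the 4 probe sets paired with IPO5P1, the others having changes of 0.22, 0.12 and -0.07, and signals of such a copy and its parent can be hard to separate by hybridisation. IPO9-AS1, NUP133-DT and NUP50-DT had changes of -0.09, -0.16 and -0.28 and did not pass.

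The direction of change was mostly shared between array 1 and arrays 2 and 3. The sign agreed in 39 of the 52 pore, import and export members (75%), close to the 74.3% of all genes. The median change of the 52 was -0.25 in array 1 and -0.26 in arrays 2 and 3. NUP35 changed by -1.92 and -1.80, XPO4 by -0.82 and -0.84 and NUP188 by -0.47 and -0.52, whereas KPNA2 changed by -1.48 and -0.76 and NXT2 by -3.90 and -2.99. When the means of arrays 2 and 3 stood for 1 replicate, 14 members fell (5.26% of all genes), all of them among the 22, and 1 rose (6.05%). With arrays 2 and 3 only, all 22 passed again, 31 fell in all (18.8% of all genes) and 6 rose (22.8%). Of the 22, 17 passed in each of the 6 fits without 1 array, the exceptions being NUP58, KPNA2, KPNA3, IPO5 and IPO8.

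**Figure D4:**
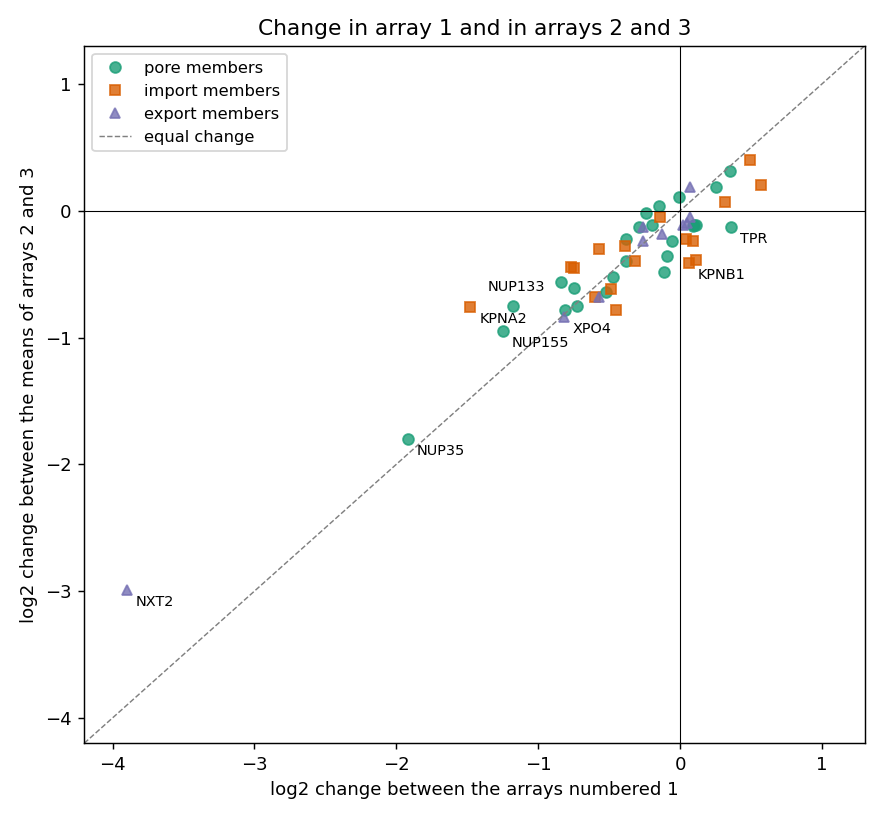
Log2 change between the arrays numbered 1 (horizontal axis) against the change between the means of arrays 2 and 3 (vertical axis) for pore, import and export members, with a dashed line of equal change. Most members lie in the lower left, NUP35 and XPO4 near the line, while KPNB1 and TPR were above 0 in array 1 and below 0 in arrays 2 and 3.

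Falls also outnumbered rises when all probe sets were tested. The 56 members had 154 single-gene probe sets, of which 39 fell and 2 rose, against 8.61% and 9.92% of all probe sets. No member had a probe set that fell and another that rose at this threshold. For NUP153 this rests on the adjustment over probe sets. Its brightest probe set, which rose in the test over genes, did not pass in limma over probe sets (adjusted p = 0.072), while a dimmer one fell. Of the 40 pore, import and export members with over 1 probe set, 5 had all of them lower, namely NXT2, XPO4, IPO7, KPNA2 and KPNA3, and 21 had none that passed.

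Other genes of the pathway, listed by function and not by symbol, differed among themselves. Of 12 pore proteins with other names, 2 fell (16.7%) and 4 rose (33.3%), where 12.3% of all genes fell and 15.2% rose. NDC1, the membrane protein that anchors the pore, was at 8.94, 9.39 and 9.51 in siPCARNEQ and at 11.87, 11.90 and 11.88 in siEGFP, and fell by 2.60 (SE 0.14, adjusted p = 5.78e-05). The mRNA export factor RAE1 fell by 0.53, and SEC13, shared by the Y complex and the COPII coat, rose by 0.44 (SE 0.09, adjusted p = 0.00999). NDC1 fell further than any NUP gene.

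Of 11 measured genes of the RAN cycle, 6 fell (54.5%) and 1 rose (9.09%), against 12.3% and 15.2% of all genes. RCC1, which loads RAN with GTP, fell by 0.89 (SE 0.06, adjusted p = 0.000136), and CSE1L, which returns importin alpha to the cytoplasm, by 0.78. RAN itself, singled out with its value known, was at 12.06, 12.82 and 12.81 against 13.96, 14.07 and 14.10 and fell by 1.48 (SE 0.20, adjusted p = 0.0016). RANGRF, which releases nucleotide from RAN, rose by 0.75 (SE 0.09).

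Of 18 measured mRNA export adaptors, 3 fell (16.7%, near the 12.3% of all genes) and 0 rose with limma, and 4 were higher at an unadjusted p below 0.05. Those that fell were DDX39A (0.68), NCBP2 (0.37) and ALYREF (0.70), which recruit the exporter or bind the cap. Of 16 nuclear envelope and lamina genes, 5 fell (31.2%) and 2 rose (12.5%), against 12.3% and 15.2% of all genes. LMNB1, which encodes lamin B1, was at 10.34, 10.32 and 10.33 against 11.48, 11.56 and 11.54, and fell by 1.20 (SE 0.06, adjusted p = 5.12e-05). The lamina-associated gene TMPO fell by 0.71, while SYNE2, which links the envelope to the cytoskeleton, rose by 1.93 (SE 0.17, adjusted p = 0.000293).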

How the data were processed

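The deposited table holds probe-set intensity on a linear scale from 6 single-colour Affymetrix arrays, summarised by the authors with RMA, per the submitters' processing notes. All 6 columns share the same quantiles, so differences in total RNA or overall signal cannot be seen. No source used here gives the probe file or genome build used upstream.

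Log2 was taken with no pseudocount. Of 54675 probe sets, 62 controls were left out and 41091 of the rest were paired with 1 gene, 1801 with several and 11721 with none listed. Symbols were checked against RefSeq through the gene identifier, which updated 0 symbols. A gene was represented by its brightest single-gene probe set over all 6 arrays (19775 genes). The 2 groups were tested against each other in limma 3.58.1 (lmFit, eBayes; R 4.3.3), 2-sided, on all genes without covariates, with Benjamini-Hochberg adjustment over all genes and a threshold of 0.05. The fit was tested on simulated data. Figures were drawn with matplotlib 3.10.9 under Python 3.11.15.

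The members and lists were chosen with earlier results of these data known. Values in each array are given for the 8 members with the largest change among those that passed without overlap, the member with the smallest p of each functional subgroup, members that rose, and KPNB1, XPO1, NXF1, NXT1 and NXT2, of which NXF1 had no value. From each pathway list, up to 3 members that passed are named. Both groups carry replicate numbers 1 to 3, and deviations from the group means had correlations of 0.47, 0.30 and 0.34 between same-numbered arrays. Each being over 0.1, a pairing of the arrays by number was considered, a reading of the data since no label states a shared batch. Array 1 stood apart in both groups, and correlations between arrays of different number were not compared. The values given therefore cannot show that arrays 2 or 3 pair by number. The main test did not use this pairing, so SEs and p-values given without mention of the replicate block are unpaired. The replicate block was an alternative, and so were other probe-set choices, scalings, filters, a variance trend, averaging arrays 2 and 3, arrays 2 and 3 only, and leaving out each array. Promoter windows and coordinates came from RefSeq (GRCh38.p14), and the motifs and their spelled forms were chosen after the changes were known.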

Additional observations from a re-analysis of the deposited data

How the results depend on the processing

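Counts of members were recomputed under each alternative, with limma throughout. When the means of arrays 2 and 3 stood for 1 replicate, 14 members fell, 3 of them import members, and 1 rose. With arrays 2 and 3 only, 5 export members fell and 6 members rose. With a change of at least 1.5-fold required, 14 fell and 1 rose. With the replicate number as a block, 25 fell and 5 rose. NUP37, NUP54 and XPO5 then also fell, NUP93 and IPO13 also rose, and the block changed no other call among the members. Leaving out 1 array gave 17 to 26 members that fell, 1 to 4 that rose, 9 to 11 pore and 5 to 12 import members that fell, and 3 export members that fell in each fit. Of all genes, 8.38% to 14.5% fell and 10.3% to 17.4% rose in these fits. Centring arrays on their median, a variance trend, the filter on low values and both other probe-set choices kept the counts within 1.5 times. Further quantile normalization gave the same counts, but this is no check, since the columns already shared the same quantiles. Members that passed in every alternative in which they were tested numbered 12 of the 22.

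Of the 52 pore, import and export members, 15 changed sign in at least 1 alternative, 2 of which had passed as reported (NUP58 and NUP153), and 0 of the 26 values of turned sign passed. With the mean of all probe sets, the change was 0.04 for NUP58, -0.23 for NUP153, 0.03 for XPO1, 0.01 for NUP54 and -0.11 for TPR, which was also below 0 in 4 other alternatives (-0.18 to -0.01). With probe sets ending in _s_at or _x_at left out it was 0.31 for KPNB1, 0.38 for NUP54 and 0.09 for NUP62. Leaving out 1 array, NUP210L changed by -0.02 to 0.13, with the negative value without siEGFP array 2. NUP98, NUP50, NUP210P1, NUP62CL, KPNA5, XPO6 and NXF3 also changed sign, at values up to 0.11. For the probe-set choices the alternative takes in or leaves out probe sets by construction, and for the others the cause was not tested. Levels near or below the array median, as for NXT2 in siPCARNEQ, limit how well the size of a fall can be measured. With 3 arrays a group, and arrays 2 and 3 more alike than array 1, small changes could be missed.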
